A study of Mus musculus with 27 samples.

Results

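Interferon-stimulated genes were followed in the lungs of 3 mouse strains 24 h after whole thorax lung irradiation (WTLI). The set held 38 genes chosen by name, and 36 of them had a probe set with a single gene symbol among the 18194 genes measured. Each gene was read from its brightest probe set, by the mean over the 27 arrays, as log2 intensity. The array values of Isg15 and Ifi44 were not analysed here. Over all arrays 34 of the 36 members reached a mean of 6 on the log2 scale, while Oas3 and Mx2 lay under it. Mice of the CBA/J, C57BL/6J and C57L/J strains, all female and aged 10 to 12 weeks at exposure, received 0 Gy (sham), 12.5 Gy or 15 Gy of X-rays in a single dose, with the parts of the body outside the thorax shielded. Each of the 9 groups held 3 mice. RNA of the right upper lobe was run on 1 array per mouse without pooling. The strains are inbred, and the labels name no transgene and no agent other than radiation. By the labels the lungs of CBA/J mice later develop pneumonitis only, those of C57L/J mice a mix of pneumonitis and fibrosis, and those of C57BL/6J mice fibrosis with mild pneumonitis. None of these outcomes was measured here.

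As background, type I interferons are secreted proteins that bind a receptor made of IFNAR1 and IFNAR2. Signaling from the receptor forms a complex with STAT2 and IRF9 that binds the interferon-stimulated response element (ISRE) in the promoters of target genes. The proteins made from these genes sense nucleic acids, block the translation or release of viruses, and in part feed back on the pathway itself. They are studied in irradiated tissue because DNA that leaves the nucleus can start interferon production. RNA of whole lobes was measured, so fewer cells of a type and less RNA per cell cannot be told apart.

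The ISRE ties these genes to the pathway, so their promoters are shown before their values. RefSeq promoters of build GRCm38.p6, from 250 bases before to 50 bases after each start, were found for 28 of the 38 members. The core of the ISRE was searched as the letters GAAANNGAA on both strands, and overlapping matches were counted. At least 1 core was present in 16 of these 28 members (57.1%), against 9.76% of 27025 genes. More than 1 core was present in 10 members, against 0.736% of all genes. On the gene strand alone 8 members held a core, against 5.15% of all genes. The core TTCNNNGAA of the GAS element, through which interferon gamma acts and which reads the same on both strands, was present in 6 of the 28 (21.4%), against 9.55%. A match describes the letters only, and binding was not measured.

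The 250 bases before the start are printed for Oas3, Bst2, Ifit1 and Ifit3, which were called higher after irradiation and hold the core, so that its place can be seen. Trim30a, which was called lower in CBA/J, holds it too and is given below by its core and flanks. Capitals mark the core, or its reverse complement where it lies on the other strand, and longer runs of capitals are overlapping cores. In GRCm38.p6 they lie at chr5:120777660-120777909 (minus strand), chr8:71537473-71537722 (minus strand), chr19:34640639-34640888 (plus strand) and chr19:34583279-34583528 (plus strand).
Oas3: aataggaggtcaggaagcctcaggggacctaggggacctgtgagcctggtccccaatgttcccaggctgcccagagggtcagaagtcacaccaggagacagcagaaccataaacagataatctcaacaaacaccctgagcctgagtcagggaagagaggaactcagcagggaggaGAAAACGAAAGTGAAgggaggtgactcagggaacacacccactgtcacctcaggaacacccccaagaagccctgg
Bst2: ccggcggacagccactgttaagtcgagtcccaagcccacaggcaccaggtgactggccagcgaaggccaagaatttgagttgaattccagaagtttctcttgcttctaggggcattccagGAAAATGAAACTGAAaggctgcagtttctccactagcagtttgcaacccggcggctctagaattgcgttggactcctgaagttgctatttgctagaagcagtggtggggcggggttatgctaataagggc
Ifit1: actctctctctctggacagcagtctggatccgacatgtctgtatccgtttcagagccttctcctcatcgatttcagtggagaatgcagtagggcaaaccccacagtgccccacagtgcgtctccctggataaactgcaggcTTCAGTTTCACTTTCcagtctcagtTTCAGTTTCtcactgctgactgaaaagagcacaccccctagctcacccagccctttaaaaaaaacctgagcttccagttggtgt
Ifit3: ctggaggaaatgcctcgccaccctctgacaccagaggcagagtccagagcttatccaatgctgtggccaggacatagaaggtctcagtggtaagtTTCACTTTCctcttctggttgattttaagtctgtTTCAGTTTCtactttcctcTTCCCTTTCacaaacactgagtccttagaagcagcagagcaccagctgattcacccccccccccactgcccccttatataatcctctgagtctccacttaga

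The Oas3 and Bst2 promoters each held 2 cores that overlap, on the strand of the gene, and the Ifit1 and Ifit3 promoters each held 3 cores on the other strand. For 9 further members the core nearest the start is given with 5 bases on each side, written in the direction of the core, to show how the flanks differ around the same letters.
Isg15: aaaccGAAACAGAAaatag
Oas1a: aaatgGAAACTGAAaatct
Rsad2: tttctGAAAATGAAagttg
Stat2: gaaagGAAACTGAAaccag
Gbp2: acagtGAAAGTGAAactaa
Gbp3: tctggGAAATAGAAactga
Ifih1: gaatcGAAACAGAAaccga
Eif2ak2: gccggGAAAACGAAacaga
Trim30a: actgaGAAAAAGAAactaa

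In this window the letters were not found for Irf7, Irf9, Oasl1, Oasl2, Ifit2, Cmpk2, Lgals3bp, Epsti1, Herc6, Sp100, Xaf1 and Ifi35. Of these, Irf7, Oasl1, Oasl2, Cmpk2, Lgals3bp and Herc6 were called higher in a comparison with sham, and Epsti1 and Sp100 lower. Promoters of Mx1, Mx2, Oas2, Zbp1, Usp18, Dhx58, Tor3a, Parp9, Parp14 and Rtp4 were not analysed here.

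The tissue label held on every array, where the mean of 3 type II alveolar genes was 13.2 to 13.9 and that of 3 club cell genes 14.4 to 15.0 (log2 intensity). Skeletal muscle transcripts were present on 9 arrays, where the mean of 10 muscle genes lay 2.40 to 8.03 above the median array. These were C57L/J replicate 3 at 15 Gy, C57BL/6J replicates 1 and 2 at 12.5 Gy and replicates 2 and 3 at 15 Gy, and CBA/J replicates 1 and 2 at 0 Gy and replicates 2 and 3 at 12.5 Gy. The 5 B cell genes measured had median changes of -2.31 to -1.31 on the log2 scale after irradiation.

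The members moved together from array to array. Each array was summarized by the median over the 36 members of a member's deviation from its own mean over the 27 arrays (log2). In C57L/J this median was -0.39, -0.25 and 0.00 on the sham arrays, 0.18, 0.29 and -0.09 at 12.5 Gy and -0.28, 0.21 and 1.19 at 15 Gy, in the order of the replicates. Replicate 3 at 15 Gy stood apart from every other array of the series. In C57BL/6J it was -0.23, 0.01 and -0.13 on the sham arrays, 0.35, 0.37 and 0.07 at 12.5 Gy and 0.39, 0.37 and 0.32 at 15 Gy. All 6 irradiated C57BL/6J arrays lay above the sham arrays of the strain. In CBA/J it was -0.17, -0.23 and -0.13 on the sham arrays, -0.10, -0.28 and -0.28 at 12.5 Gy and -0.41, -0.28 and -0.13 at 15 Gy. The CBA/J groups overlapped, and all 9 arrays lay under 0. The same median over all 18194 genes stayed between -0.04 and 0.07.

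**Figure D1:**
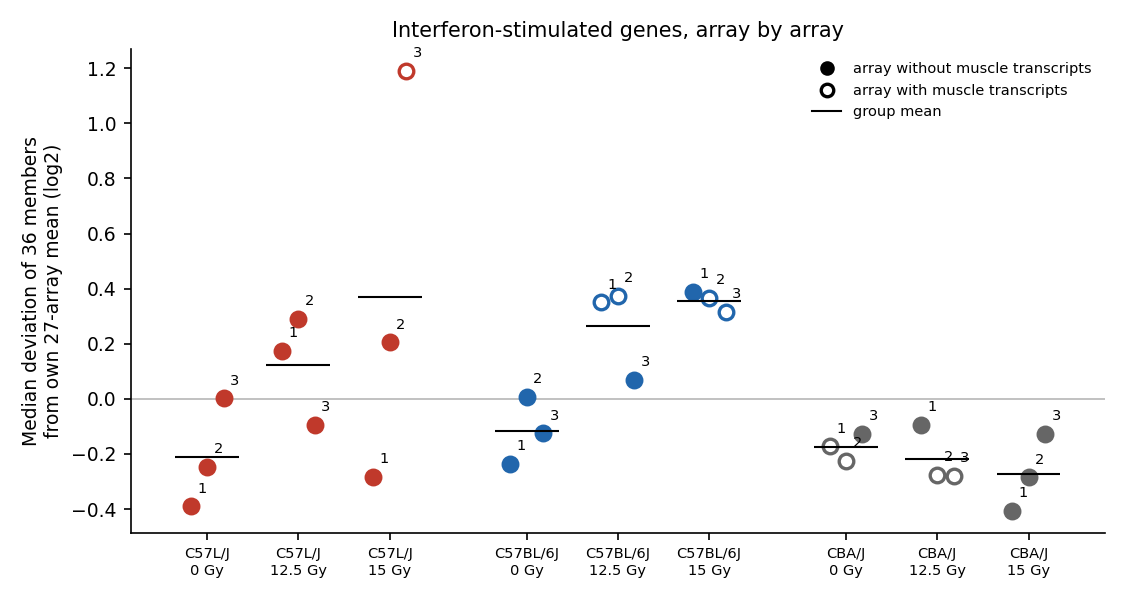
Median over the 36 members of the log2 deviation from each member's 27-array mean (y axis) on each array, by strain and dose (x axis); numbers are replicates, lines are group means and open circles are arrays with muscle transcripts. C57L/J replicate 3 at 15 Gy lies at 1.19, the irradiated C57BL/6J arrays lie above their sham arrays, and all CBA/J arrays lie under 0.

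C57L/J replicate 3 at 15 Gy was high for nearly every member. There 30 of the 36 members had their highest value of all 27 arrays, and 35 lay above all 3 sham arrays of the strain, against 34.0% of all genes. On replicates 1 and 2 of the same group 8 and 26 members did, against 28.5% and 28.3% of all genes. This was also the C57L/J array with muscle transcripts (mean of 10 genes 13.9, against 5.83 to 6.72 on the other C57L/J arrays). The thyroid transcript Tg was 14.3 there and 2.31 to 5.14 on the other C57L/J arrays. Glycam1, expressed in the vessels of lymph nodes, was 12.4 there and 1.03 to 6.4 on the others. The part of this other tissue in the member values was not tested. CBA/J replicate 3 at 12.5 Gy, with the highest muscle mean of the series (14.8), Tg at 15.1 and Glycam1 at 2.76, had a member median of -0.28. C57BL/6J replicate 2 at 15 Gy, with Tg at 13.5 and Glycam1 at 10.5, had a member median of 0.37, between the other arrays of its group. These arrays differed in other transcripts. The squamous epithelium transcripts Krt4 and Krt13 were 14.47 and 13.95 on C57L/J replicate 3, and 9.32 and 5.48 on the CBA/J array. They were 12.24 and 11.74 on the C57BL/6J array. The T cell transcript Cd8a was 9.04, 7.51 and 6.80 in the same order. The arrays carried unlike tissue, so comparing them cannot decide its part in the member values.

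**Figure D2:**
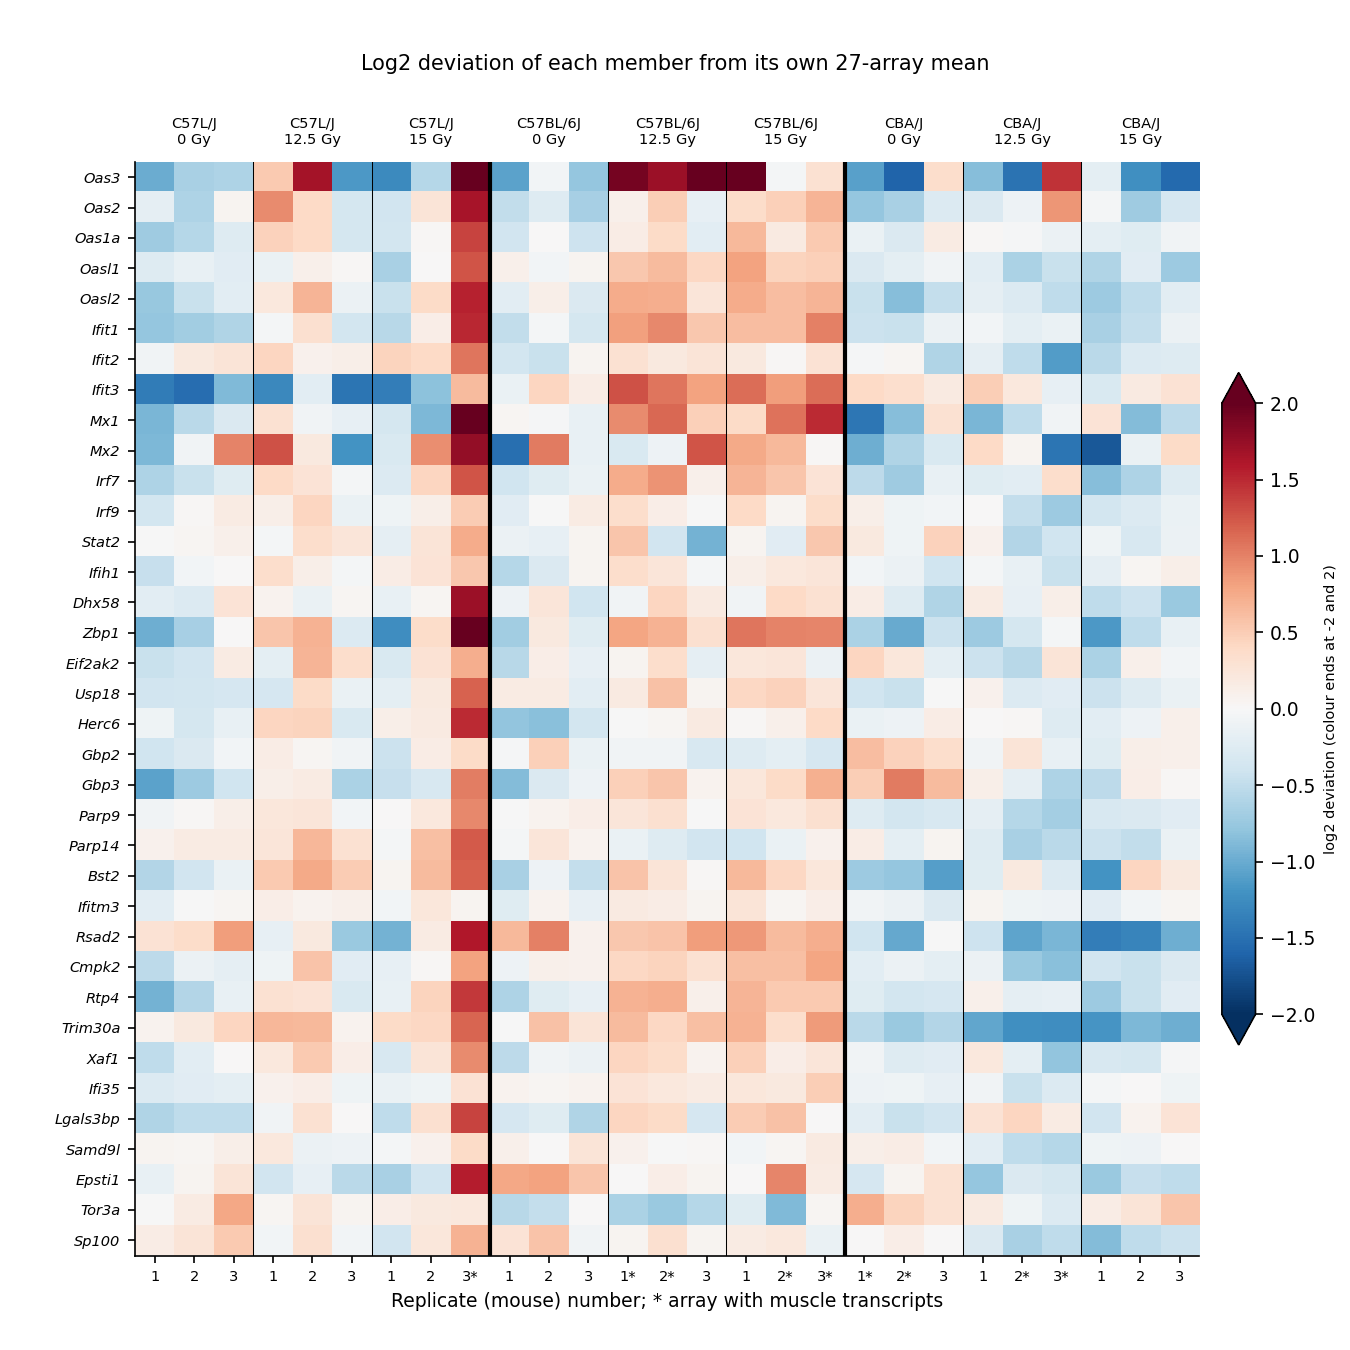
Log2 deviation of each of the 36 members (rows, by role) from its own 27-array mean on every array (columns, by strain, dose and replicate); red is higher, blue is lower, and arrays with muscle transcripts are marked. The column of C57L/J replicate 3 at 15 Gy is red for nearly all members, and most C57BL/6J columns at 12.5 and 15 Gy are redder than their sham columns.

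Within groups the members also followed each other. With the group means removed, Pearson's r of a member with the mean of the other 35 over the 27 arrays had a median of 0.78, from 0.25 for Tor3a to 0.96 for Oasl2, and 32 of 36 members reached 0.5. Over all genes the median r with the mean of the members was 0.00, and 4.34% reached 0.5. All members share these arrays and their scaling, so the correlations are a description. A part of the value rested on 1 array. Without C57L/J replicate 3 at 15 Gy the median was 0.59, 23 members reached 0.5, and 1.64% of all genes did. Oasl2 (0.91), Rtp4 (0.90), Ifit1 (0.86), Zbp1 (0.85) and Oas1a (0.83) then had the highest values. Mx1 (-0.07), Ifit2 (0.13) and Dhx58, the RNA sensor LGP2 (0.14), had the lowest. Over the 18 arrays without muscle transcripts the median was 0.74, 29 members reached 0.5, and 6.47% of all genes did. Some groups of C57BL/6J and CBA/J then held 1 array. Such an array has no deviation from its group mean and adds nothing to r, so these values rest on fewer arrays.

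**Figure D3:**
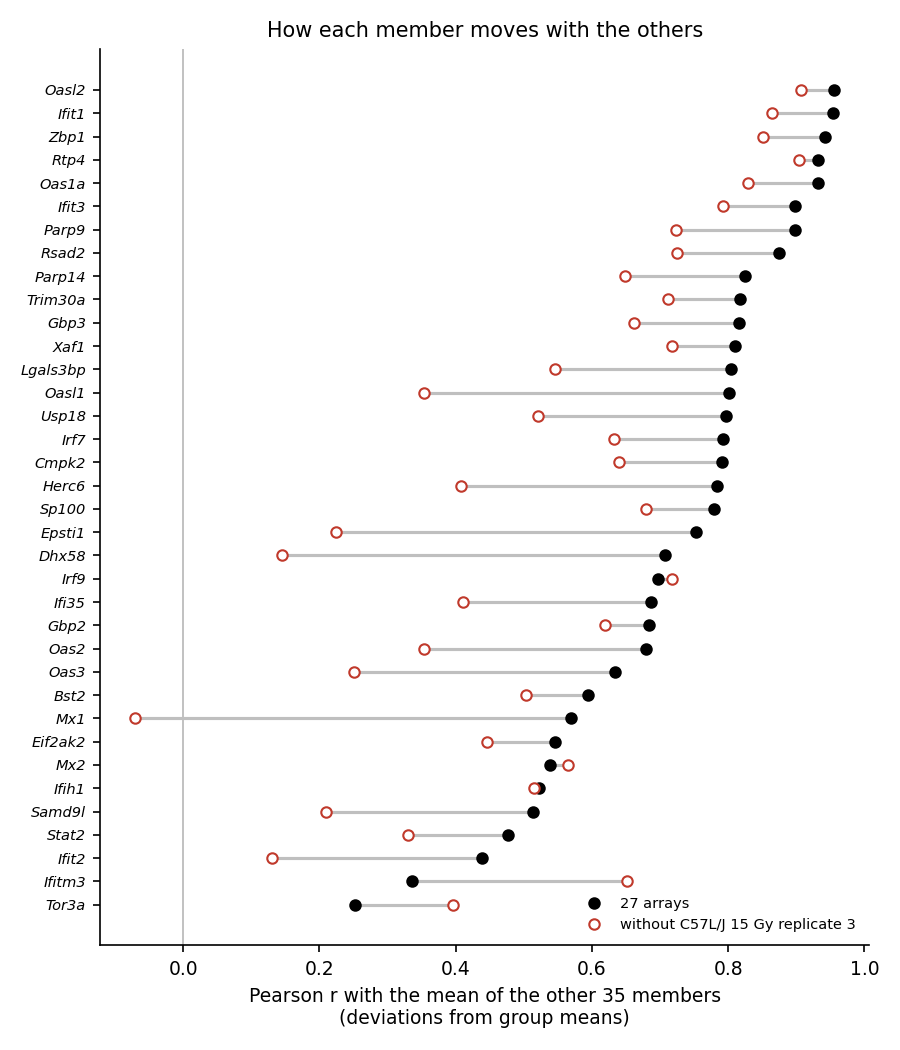
Pearson correlation (x axis) of each member (rows) with the mean of the other 35 members, over deviations from group means, with all 27 arrays and without C57L/J replicate 3 at 15 Gy. With all arrays every member lies above 0, and without that array Mx1 lies at -0.07.

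Irradiated lungs were then compared with sham lungs of the same strain, gene by gene, with limma on log2 intensity over all 18194 genes. A gene was called at an unadjusted p under 0.01, the criterion of the study, and the Benjamini-Hochberg adjusted p over all genes is given beside it. A single member passed an adjusted p of 0.05 after irradiation, Oas3 in C57BL/6J at 12.5 Gy. With an intensity trend and a robust prior 3 members passed in C57L/J at 12.5 Gy, 3 in C57BL/6J at 12.5 Gy, 7 in C57BL/6J at 15 Gy, all higher, and 1 in CBA/J at 15 Gy, lower. In a fit over all arrays 1 passed, lower in CBA/J at 12.5 Gy. The shares of all genes given below belong to the limma fits described first. Counts of members under alternative settings have no such share beside them, so they cannot be set against all genes. Both doses of a strain share its sham arrays. The labels call the mice biological replicates.

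In C57BL/6J lungs most members were higher after either dose. At 12.5 Gy the median member change was 0.41 on the log2 scale (all genes -0.01), and 29 of 36 changes were positive. Of the members 6 rose, against 0.978% of all genes, and 1 fell, against 2.67%. In the upward direction the adjusted limit was passed by 0.121% of all genes, Oas3 among them. An unadjusted p under 0.05 in either direction was found for 18 members, against 10.8% of all genes. On all 3 irradiated arrays 17 members lay above all 3 sham arrays, against 6.82% of all genes. Below all of them lay 3 members, against 2059 of the 18194 genes. At 15 Gy the median was 0.50 (all genes 0.01), 30 of 36 changes were positive and 10 members rose, against 1.59% of all genes. By limma 0 members fell at this dose (2.22% of all genes), as by the random variance t test, and 17 members had an unadjusted p under 0.05 in either direction (12.5% of all genes). Here 21 members lay above all sham arrays, against 8.92% of all genes, and 1 lay below, against 2169 of the 18194 genes.

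Muscle transcripts were present on 2 of the 3 C57BL/6J arrays at each dose (mean of 10 muscle genes 6.34 to 12.0 at 12.5 Gy, 6.73 to 12.4 at 15 Gy and 6.21 to 6.76 in sham lungs). On the array without them the members lay above sham by a median of 0.27 at 12.5 Gy and 0.44 at 15 Gy. A fit over the 18 arrays without muscle transcripts, in which this lone array was taken to vary as the other groups do, called Oas3 higher at 12.5 Gy, and Irf7 and Oasl1 higher at 15 Gy, with Stat2 at 12.5 Gy and Epsti1 at both doses lower. Neutrophil markers were higher in the same lungs, where the mean of 4 of 6 listed genes was 9.79 to 11.3 at 12.5 Gy, 10.2 to 11.2 at 15 Gy and 7.67 to 8.92 in sham lungs. Their part in the member values was not tested.

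**Figure D4:**
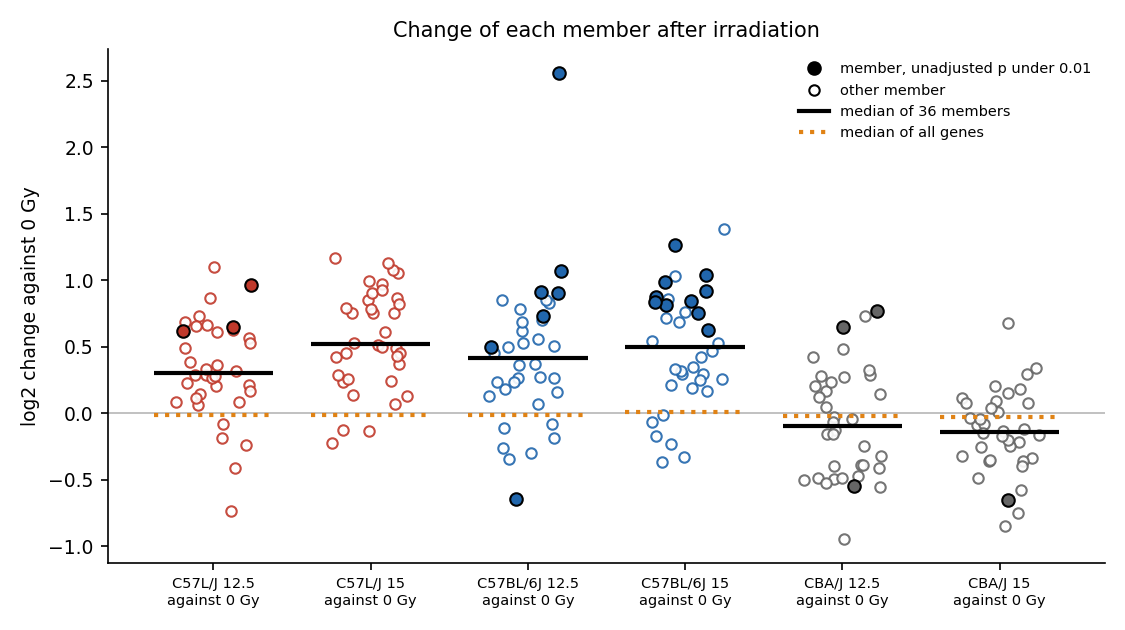
Log2 change against sham lungs of the same strain (y axis) for each of 36 members in 6 comparisons (x axis); filled points passed an unadjusted p under 0.01, solid lines are the member medians and dotted lines the medians of all genes. The member medians at 12.5 and 15 Gy are -0.10 and -0.14 for CBA/J, 0.41 and 0.50 for C57BL/6J, and 0.30 and 0.52 for C57L/J.

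The OAS enzymes sense double-stranded RNA and activate RNase L, and OAS-like proteins share their fold. All 5 members of the family had positive changes in C57BL/6J at both doses. Oas3 was 4.45, 5.47 and 4.75 on the sham arrays, 7.44, 7.24 and 7.67 at 12.5 Gy and 7.53, 5.48 and 5.82 at 15 Gy. The 12.5 Gy arrays lay far above sham, whereas replicates 2 and 3 at 15 Gy lay close to the highest sham array. Oas3 rose by 2.56 ± 0.29 (limma, adjusted p = 0.0387) at 12.5 Gy, and was 1.39 higher at 15 Gy without a call. It is among the dimmest members, with 2 of its 3 sham values under the alternative floor of 32 (5 on the log2 scale), so its size of change is uncertain, and with that floor the change at 12.5 Gy was 2.30. Oas2 was 7.71, 7.94 and 7.53 in sham lungs, 8.30, 8.69 and 8.03 at 12.5 Gy and 8.57, 8.67 and 8.88 at 15 Gy. Both doses lay above sham without overlap, and the gene rose by 0.99 ± 0.16 (limma, adjusted p = 0.152) at 15 Gy. Oasl2 was 9.85, 10.17 and 9.77 in sham lungs, 10.80, 10.79 and 10.30 at 12.5 Gy and 10.80, 10.68 and 10.75 at 15 Gy, and rose by 0.81 ± 0.15 (limma, adjusted p = 0.174) at 15 Gy. Oasl1 rose by 0.50 ± 0.13 (limma, adjusted p = 0.25) at 12.5 Gy.

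IFIT proteins bind foreign RNA and block its translation, and 2 of the 3 measured were called at both doses in C57BL/6J. Ifit1 was 9.70, 10.14 and 9.83 in sham lungs, 11.00, 11.14 and 10.72 at 12.5 Gy and 10.80, 10.80 and 11.19 at 15 Gy. No irradiated array overlapped a sham array. Ifit1 rose by 1.07 ± 0.18 (limma, adjusted p = 0.11) at 12.5 Gy and by 1.04 ± 0.19 (limma, adjusted p = 0.161) at 15 Gy, which is 2.1-fold and 2.06-fold. Ifit3 was 10.26, 10.81 and 10.54 in sham lungs, 11.67, 11.46 and 11.19 at 12.5 Gy and 11.50, 11.23 and 11.51 at 15 Gy, again without overlap. It rose by 0.90 ± 0.21 (limma, adjusted p = 0.197) and 0.88 ± 0.19 (limma, adjusted p = 0.197). Ifit2 had changes of 0.50 and 0.42 and was not called. Without the arrays with muscle transcripts neither gene was called, with 1 irradiated array left per dose. The changes were then 0.83 and 0.91 for Ifit1 and 0.65 and 0.96 for Ifit3.

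Mx1, a GTPase that traps viral nucleoproteins, was 6.41, 6.35 and 6.22 in C57BL/6J sham lungs, 7.32, 7.52 and 6.85 at 12.5 Gy and 6.76, 7.46 and 7.86 at 15 Gy. Every irradiated array exceeded sham, and Mx1 rose by 0.91 ± 0.20 (limma, adjusted p = 0.193) at 12.5 Gy. Zbp1, a sensor of left-handed nucleic acid that can start cell death, was 6.61, 7.51 and 7.06 in sham lungs, 8.10, 8.01 and 7.63 at 12.5 Gy and 8.38, 8.30 and 8.29 at 15 Gy. The 15 Gy arrays differed little among themselves, and the gene rose by 1.26 ± 0.24 (limma, adjusted p = 0.179), or 2.4-fold. Irf7, which amplifies interferon production, was 9.37, 9.54 and 9.64 in sham lungs, 10.51, 10.67 and 9.87 at 12.5 Gy and 10.46, 10.32 and 10.04 at 15 Gy, and rose by 0.75 ± 0.16 (limma, adjusted p = 0.2) at 15 Gy. Irf9 and Stat2, of the complex that binds the ISRE, had changes of 0.29 and 0.19 at 15 Gy without a call.

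Herc6, the main ligase that joins ISG15 to proteins in the mouse, was 7.94, 7.90 and 8.37 in C57BL/6J sham lungs, 8.73, 8.77 and 8.91 at 12.5 Gy and 8.76, 8.84 and 9.13 at 15 Gy. It rose by 0.73 ± 0.17 (limma, adjusted p = 0.211) and 0.84 ± 0.19 (limma, adjusted p = 0.219), but its most variable probe set had the opposite direction at 12.5 Gy. Cmpk2, a mitochondrial nucleotide kinase encoded beside viperin, was 9.13, 9.33 and 9.32 in sham lungs, 9.65, 9.67 and 9.54 at 12.5 Gy and 9.83, 9.82 and 10.01 at 15 Gy, and rose by 0.63 ± 0.13 (limma, adjusted p = 0.196) at 15 Gy. Viperin itself (Rsad2) had a change of 0.17 there without a call. Rtp4, a chaperone of receptors at the cell surface, was 10.37, 10.75 and 10.82 in sham lungs, 11.68, 11.71 and 11.09 at 12.5 Gy and 11.66, 11.51 and 11.51 at 15 Gy, and rose by 0.91 ± 0.17 (limma, adjusted p = 0.162). Bst2, or tetherin, which holds budding virus at the cell membrane, was 9.81, 10.36 and 9.97 in sham lungs, 11.02, 10.71 and 10.47 at 12.5 Gy and 11.11, 10.88 and 10.68 at 15 Gy, and rose by 0.84 ± 0.20 (limma, adjusted p = 0.23). In each of these 4 genes the 15 Gy arrays lay above all sham arrays.

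A few members went the other way. Epsti1, an interferon-induced gene of epithelium and macrophages, was 9.60, 9.64 and 9.39 in C57BL/6J sham lungs, 8.85, 8.97 and 8.88 at 12.5 Gy and 8.84, 9.82 and 8.99 at 15 Gy. It fell by 0.65 ± 0.13 (limma, adjusted p = 0.156) at 12.5 Gy, and at 15 Gy 1 array lay above all sham arrays. Its changes in CBA/J, -0.48 at 12.5 Gy and -0.58 at 15 Gy, were not called. The guanylate-binding proteins Gbp2 and Gbp3, which attack the vacuoles of pathogens, had changes of -0.37 and 0.86 in C57BL/6J at 15 Gy, without a call.

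The members that were not called in any comparison with sham are given by their log2 changes at 15 Gy in C57L/J, C57BL/6J and CBA/J, in that order. Among the sensors of double-stranded RNA, Ifih1 (MDA5) had changes of 0.49, 0.47 and 0.18, and Dhx58 of 0.61, 0.30 and -0.32. Eif2ak2, the kinase PKR that halts translation, had 0.46, 0.32 and -0.35. Usp18, which removes ISG15 from proteins and damps the interferon receptor, had 0.76, 0.33 and 0.01. Oas1a, the remaining OAS gene, had 0.85, 0.71 and -0.09. Of the enzymes that attach ADP-ribose, Parp9 had 0.37, 0.21 and 0.04, and Parp14 had 0.45, -0.23 and -0.36. Ifitm3, which blocks viral entry at endosomes, had 0.14, 0.25 and 0.08, and Mx2 had 0.78, 0.69 and 0.15. Samd9l, which restricts poxviruses, had 0.07, -0.07 and -0.13, and Xaf1, which promotes cell death, had 0.53, 0.52 and -0.04. Ifi35 had 0.26, 0.25 and 0.08 and Tor3a had -0.13, -0.02 and -0.17. Of members described above, Ifit2 had 0.51, 0.42 and -0.16, Irf9 had 0.24, 0.29 and -0.25, and Stat2 had 0.23, 0.19 and -0.36. Gbp2 had 0.28, -0.37 and -0.49, Gbp3 had 0.82, 0.86 and -0.85, and Rsad2 had -0.23, 0.17 and -0.75. The C57L/J values include replicate 3, which was highest in the strain for 34 of the 36 members.

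**Figure D5:**
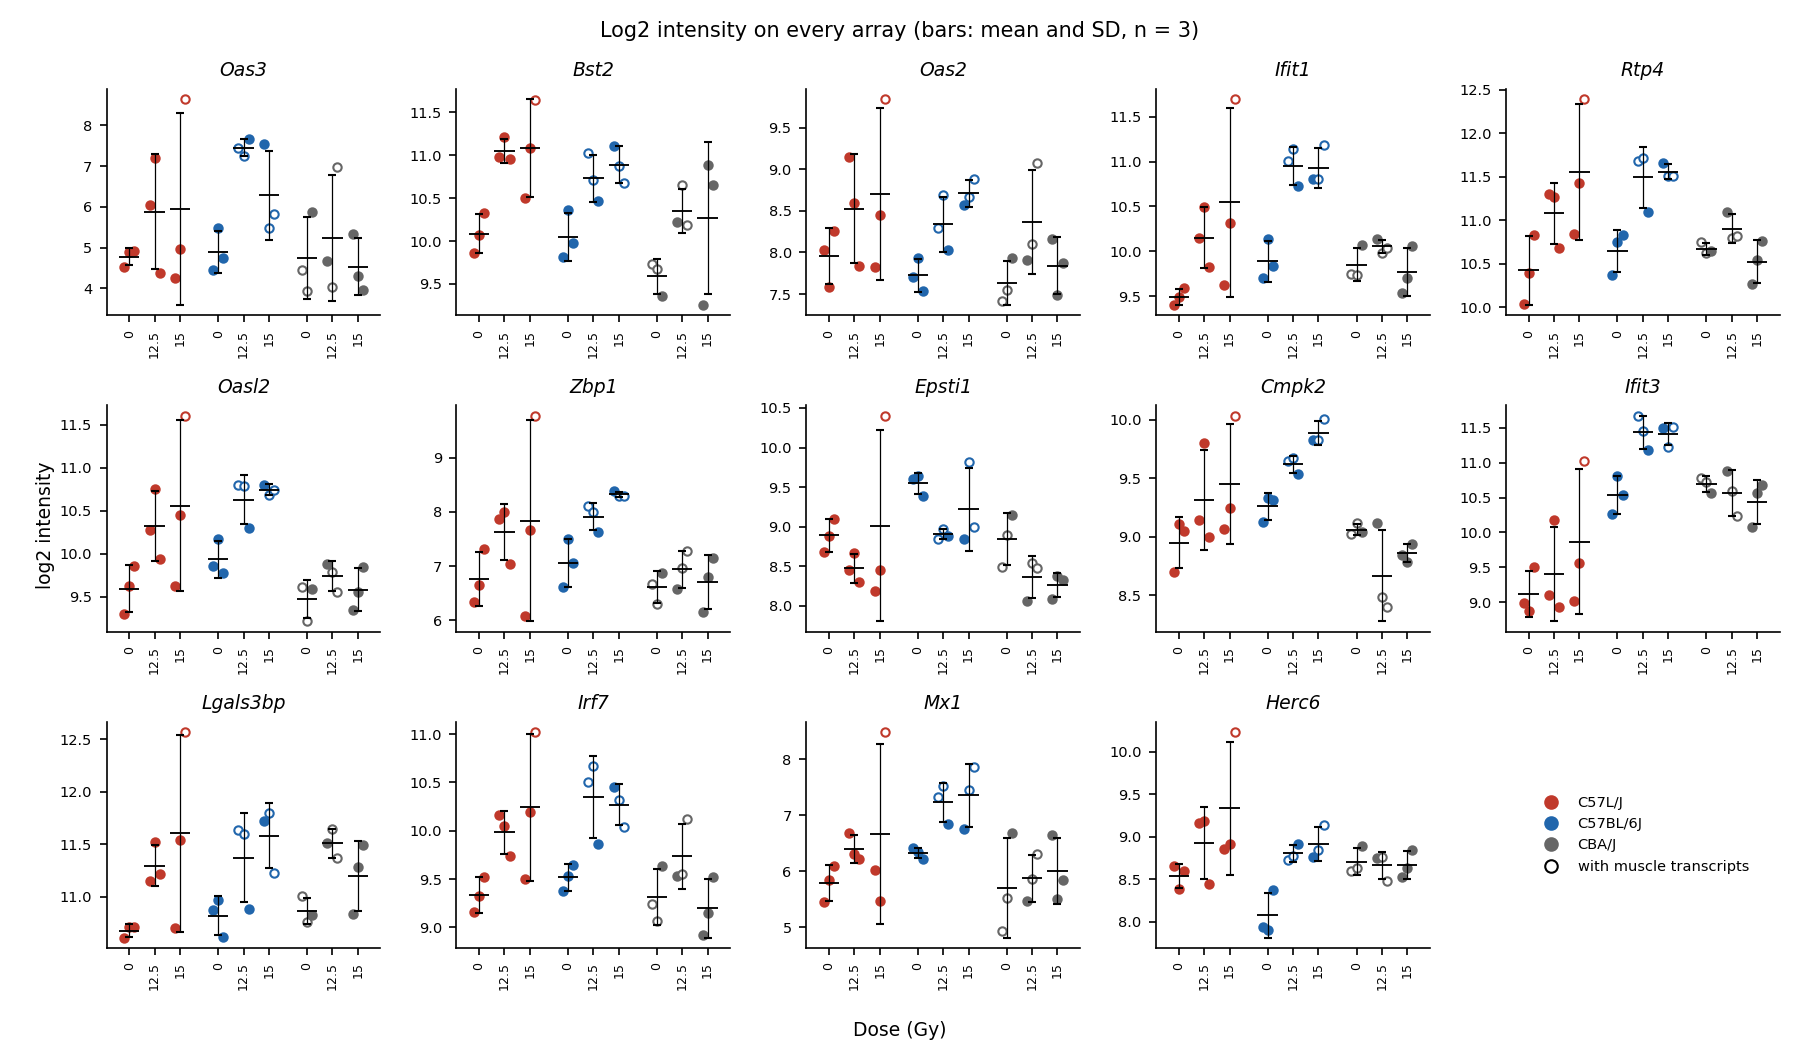
Log2 intensity (y axis, own scale in each panel) of the 14 members with the lowest p-values among those called after irradiation, on every array by dose in Gy (x axis) and strain; lines and bars are the mean and SD of 3 mice, and open circles are arrays with muscle transcripts. In C57BL/6J, Ifit1 and Ifit3 are above sham on all irradiated arrays at both doses.

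In C57L/J lungs most changes were positive as well. At 12.5 Gy the median member change was 0.30 (all genes -0.01), 31 of 36 changes were positive, and 3 members rose, against 1.68% of all genes. By limma 0 fell (2.85% of all genes), as by the random variance t test, and 11 had an unadjusted p under 0.05 in either direction (13% of all genes). On all 3 irradiated arrays 12 members lay above sham, against 9.78% of all genes. Rsad2 and Epsti1 lay below all sham arrays, as did 2058 of the 18194 genes. The neutrophil mean was 9.72 to 10.1 at 12.5 Gy, 8.28 to 9.34 at 15 Gy and 7.34 to 9.7 in sham lungs of this strain. Its part was not tested. Bst2 was 9.87, 10.07 and 10.32 in sham lungs, 10.98, 11.21 and 10.96 at 12.5 Gy and 10.51, 11.09 and 11.65 at 15 Gy. All 6 irradiated arrays exceeded sham, and Bst2 rose by 0.97 ± 0.16 (limma, adjusted p = 0.0822) at 12.5 Gy, or 1.95-fold. Lgals3bp, a secreted galectin-binding glycoprotein, was 10.61, 10.71 and 10.71 in sham lungs, 11.15, 11.52 and 11.22 at 12.5 Gy and 10.70, 11.54 and 12.57 at 15 Gy, and rose by 0.62 ± 0.13 (limma, adjusted p = 0.157) at 12.5 Gy. Irf7 was 9.15, 9.33 and 9.52 in sham lungs, 10.17, 10.04 and 9.74 at 12.5 Gy and 9.50, 10.20 and 11.02 at 15 Gy, and rose by 0.65 ± 0.16 (limma, adjusted p = 0.208) at 12.5 Gy. Without 1 array the number that rose ranged from 1 (without sham replicate 1) to 6 (without irradiated replicate 3).

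At 15 Gy the C57L/J median was 0.52 (all genes -0.01), with 33 of 36 changes positive, but 0 members were called by limma in either direction (0.786% of all genes higher and 1.08% lower). By limma 3 members had an unadjusted p under 0.05, against 7.44% of all genes. The random variance t test called 0, and a fit over all 27 arrays called 8 higher, with no share of all genes for that fit. On all 3 arrays 8 members lay above sham, against 7.61% of all genes, and 0 lay below, against 1642 of the 18194 genes. Ifit1 was 9.40, 9.48 and 9.59 in sham lungs, 10.14, 10.50 and 9.82 at 12.5 Gy and 9.62, 10.31 and 11.70 at 15 Gy. Zbp1 was 6.33, 6.64 and 7.31 in sham lungs, 7.86, 8.0 and 7.04 at 12.5 Gy and 6.07, 7.67 and 9.78 at 15 Gy. In both genes replicate 3 at 15 Gy lay far above the other arrays of its group. Without it the median member change was 0.17, 28 of 36 changes were positive, and 0 members were called by limma.

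In CBA/J lungs the members were not higher on average. At 12.5 Gy the median change was -0.10 (all genes -0.02) and 15 of 36 changes were positive, and after median-centring of the arrays the median was 0.03. Of the members 2 rose, against 0.94% of all genes, and 1 fell, against 2.34%. An unadjusted p under 0.05 in either direction was found for 9, against 10.6% of all genes. On all 3 arrays 3 lay above sham (7.56% of all genes) and 7 below (11.3%). At 15 Gy the median was -0.14 (all genes -0.03) with 12 of 36 positive, and 1 member fell (3.2% of all genes). By limma 0 rose (2.41% of all genes), as by the random variance t test, and 6 had an unadjusted p under 0.05 in either direction, against 15.6% of all genes. Here 0 members lay above all sham arrays (11.8% of all genes) and 7 below (12.7%). Muscle transcripts were present in sham lungs of this strain too (mean of 10 genes 7.25 to 10.8, against 7.08 to 14.8 at 12.5 Gy and 6.63 to 6.89 at 15 Gy). Without the arrays that carried them the medians were -0.06 and -0.18. These rest on sham replicate 3 alone, where Glycam1 was 10.5, and at 12.5 Gy on replicate 1 alone. The neutrophil mean was 8.11 to 8.36 in sham lungs, 8.01 to 9.14 at 12.5 Gy and 8.92 to 9.17 at 15 Gy, where 3 of the 4 genes were called higher and 1 lower.

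The CBA/J members that rose were Bst2 and Lgals3bp. Bst2 was 9.73, 9.68 and 9.36 in sham lungs, 10.22, 10.65 and 10.19 at 12.5 Gy and 9.25, 10.89 and 10.65 at 15 Gy. It rose by 0.77 ± 0.20 (limma, adjusted p = 0.289) at 12.5 Gy, and at 15 Gy 2 arrays lay above and 1 below all sham arrays. Lgals3bp was 11.00, 10.76 and 10.82 in sham lungs, 11.51, 11.64 and 11.37 at 12.5 Gy and 10.84, 11.28 and 11.49 at 15 Gy, and rose by 0.64 ± 0.15 (limma, adjusted p = 0.248) at 12.5 Gy. With any 1 of the 6 arrays left out, 0 to 1 members rose at 12.5 Gy. Trim30a, which restrains inflammatory signaling, fell by 0.55 ± 0.14 (limma, adjusted p = 0.286) at 12.5 Gy, and Sp100, a protein of nuclear bodies, fell by 0.65 ± 0.15 (limma, adjusted p = 0.137) at 15 Gy. Neither was called after median-centring. Ifit1, called in C57BL/6J, was 9.75, 9.74 and 10.07 in CBA/J sham lungs, 10.13, 9.99 and 10.04 at 12.5 Gy and 9.54, 9.71 and 10.06 at 15 Gy, with overlap between all 3 groups.

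Whether strains differed in their response to a dose was tested as an interaction over the 4 groups concerned. For CBA/J against C57BL/6J the median member difference was -0.42 at 12.5 Gy and -0.60 at 15 Gy, and 5 and 0 of 36 differences were positive. A lower response in CBA/J was called for 6 members at 12.5 Gy (0.539% of all genes) and 8 at 15 Gy (1.32%). Gbp3 differed by -1.73 ± 0.37 and -1.71 ± 0.36, Ifit1 by -0.87 ± 0.23 and -1.13 ± 0.26, and Ifit3 by -1.03 ± 0.29 and -1.13 ± 0.27 at 12.5 and 15 Gy. By limma 0 members passed an adjusted p of 0.05 in any interaction (lowest 0.182), with 10 and 16 at an unadjusted p under 0.05 in these 2, against 4.38% and 8.72% of all genes. Without the arrays with muscle transcripts the medians were -0.087 and -0.73. In those fits the CBA/J sham group was replicate 3 alone, where the lymph node transcript Glycam1 was 10.5. C57BL/6J was left with replicate 3 at 12.5 Gy and replicate 1 at 15 Gy, and CBA/J with replicate 1 at 12.5 Gy.

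For CBA/J against C57L/J the median difference was -0.43 at 12.5 Gy, where Gbp2, Gbp3, Parp14 and Trim30a were called lower (0.758% of all genes) and 8 members had an unadjusted p under 0.05 (6.14% of all genes). At 15 Gy it was -0.70 with 0 of 36 positive, and 0 were called by limma (0.55% of all genes) and by the random variance t test, with 4 at an unadjusted p under 0.05 (5.42% of all genes). A fit over all arrays called 4 lower and an intensity trend with a robust prior called 2. Without C57L/J replicate 3 at 15 Gy the median was -0.29 and 3 differences were positive. For C57BL/6J against C57L/J the median was 0.03 at 12.5 Gy, where Parp14 was called lower (0.594% of all genes) and 2 members had an unadjusted p under 0.05 (5.47% of all genes). At 15 Gy it was -0.04, with 0 called by limma (0.352% of all genes) and by the random variance t test and 0 at an unadjusted p under 0.05 (3.54% of all genes). Without C57L/J replicate 3 this value was 0.24. These tests do not show that the 2 strains responded alike.

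Between 12.5 and 15 Gy 0 members were called by limma in any strain in the pairwise fits, and 0 by the random variance t test. The median member difference for C57L/J was 0.20 (0.627% of all genes called in either direction), 0.08 in C57BL/6J (0.555%) and -0.06 in CBA/J (1.27%). An unadjusted p under 0.05 was reached by 0, 1 and 2 members, against 3.15%, 3.17% and 6.87% of all genes. Under the alternatives, in which the fit over all arrays called 1 member higher in CBA/J, no more than 1 member was called in a direction in any strain. The C57L/J value was -0.15 without replicate 3 at 15 Gy.

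The probe set intensities of a few members differed between strains before irradiation. Ifit3 and Gbp3 were read from 1 probe set each, with no other to compare. In sham lungs 2 members were called between C57BL/6J and C57L/J (2.6% of all genes in either direction), 4 between CBA/J and C57L/J (6.06%) and 3 between CBA/J and C57BL/6J (4.45%). The medians were 0.06, -0.01 and -0.08. Ifit3 was 8.99, 8.87 and 9.50 on the C57L/J arrays, 10.26, 10.81 and 10.54 on those of C57BL/6J and 10.79, 10.73 and 10.57 on those of CBA/J. Its C57L/J arrays lay below all others, and it was higher by 1.42 ± 0.23 (limma, adjusted p = 0.176) in C57BL/6J and by 1.58 ± 0.19 (limma, adjusted p = 0.0282) in CBA/J. Between CBA/J and C57L/J 0.687% of all genes passed the adjusted limit in this direction. For Gbp3 the CBA/J arrays gave 11.06, 11.61 and 11.20, the C57L/J arrays 9.49, 9.83 and 10.16 and the C57BL/6J arrays 9.70, 10.27 and 10.46, with CBA/J above both others. For Trim30a they gave 9.48, 9.29 and 9.43, 10.10, 10.21 and 10.45 and 10.02, 10.61 and 10.29 in the same order, with CBA/J below both others. The remaining calls were Epsti1 (0.66) in C57BL/6J against C57L/J, Gbp2 (0.73) in CBA/J against C57L/J, and Tor3a (0.84) in CBA/J against C57BL/6J. Muscle transcripts were present on 2 of the 3 CBA/J sham arrays, and without them 0 members were called higher in CBA/J than in C57BL/6J. In irradiated CBA/J lungs Gbp3 had changes of -0.95 and -0.85 without a call.

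Other genes of the pathway came from lists of 103 genes, of which 85 were measured. At 12.5 and 15 Gy 3 and 5 of them rose and 5 and 3 fell in C57BL/6J, 0 and 0 rose and 4 and 2 fell in C57L/J, and 2 and 2 rose and 3 and 8 fell in CBA/J. Of all genes 0.978% and 1.59% rose and 2.67% and 2.22% fell in C57BL/6J. For C57L/J these shares were 1.68% and 0.786% higher and 2.85% and 1.08% lower. For CBA/J they were 0.94% and 2.41% higher and 2.34% and 3.2% lower. The median changes of the 85 genes were between -0.19 and 0.07. Of the 17 interferon genes 9 were measured. Ifnb1, the main interferon of non-immune cells, was 2.54 to 6.40 over the 27 arrays and was not called in any comparison with sham. Ifng, the interferon of T and NK cells, fell by 1.56 ± 0.23 (limma, adjusted p = 0.0674) in C57L/J at 12.5 Gy. None of the 6 receptor genes was called, and Ifnar1 was 8.06 to 9.50 and Ifnar2 10.50 to 11.09 over the 27 arrays. Irf8, a transcription factor of myeloid and B cells, fell in all 3 strains at both doses, with changes from -1.50 to -0.92. The other genes that rose in CBA/J were Ly6e at both doses, Ifi27l2a by 0.71 ± 0.15 (limma, adjusted p = 0.23) at 12.5 Gy, and Ifna9, one of the closely alike interferon alpha genes, at 15 Gy. Ifna9 was 2.20, 2.40 and 3.14 in sham lungs and 4.60, 3.75 and 5.59 at 15 Gy, low on the log2 scale, and rose by 2.07 ± 0.52 (limma, adjusted p = 0.163).

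Among 36 other interferon-stimulated genes measured, 3 rose in C57BL/6J at 12.5 Gy (0.978% of all genes) and 5 at 15 Gy (1.59%). Slfn4, a Schlafen gene of myeloid cells, was 8.02, 6.67 and 8.15 in sham lungs, 11.58, 10.85 and 12.75 at 12.5 Gy and 12.15, 11.33 and 11.75 at 15 Gy. It rose by 4.12 ± 0.61 (limma, adjusted p = 0.0728) and 4.13 ± 0.45 (limma, adjusted p = 0.0797). Slfn4 and the neutrophil gene S100a8 had their highest C57BL/6J value on the same array, replicate 3 at 12.5 Gy, and the part of neutrophils was not tested. Ifi204, of the DNA-binding HIN-200 family, was 5.11, 4.62 and 5.20 in sham lungs and 6.82, 7.10 and 7.20 at 15 Gy, and rose by 1.37 ± 0.34 (limma, adjusted p = 0.232) and 2.06 ± 0.21 (limma, adjusted p = 0.0662). Ifi27l2a rose by 1.42 ± 0.21 (limma, adjusted p = 0.0728) and 1.82 ± 0.24 (limma, adjusted p = 0.103). The others that rose, at 15 Gy, were Ddx60 (1.13), a helper of RNA sensing, and Slfn1 (1.02). In C57L/J 0 of these genes rose by limma at either dose. Even so, Slfn4 and Ifi27l2a lay above all C57L/J sham arrays on every irradiated array of the strain. Slfn4 was 7.38, 7.70 and 7.75 in these sham lungs and 10.69, 9.61 and 8.19 at 12.5 Gy. Ifi27l2a was 11.05, 10.77 and 10.94 in sham lungs and 12.80, 12.13 and 11.15 at 12.5 Gy. Ifi204, Ddx60 and Slfn1 overlapped sham in this strain. In CBA/J Ly6e, a membrane protein that restricts coronavirus entry, was 12.84, 12.41 and 12.14 in sham lungs and 13.55, 13.73 and 13.66 at 15 Gy, and rose by 1.01 ± 0.24 (limma, adjusted p = 0.262) and 1.19 ± 0.20 (limma, adjusted p = 0.0782). Ms4a4c, a membrane gene of lymphoid and myeloid cells, fell in CBA/J by 1.58 ± 0.17 (limma, adjusted p = 0.0694) and 1.09 ± 0.11 (limma, adjusted p = 0.0232), and in C57BL/6J by 0.83 ± 0.15 (limma, adjusted p = 0.13) at 12.5 Gy. Ifi203, also of the HIN-200 family, was called lower in C57L/J (-0.56 and -0.71).

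The chemokine gene Ccl5, of T and NK cells, was 11.36, 11.55 and 11.12 in C57BL/6J sham lungs, 9.31, 9.30 and 9.84 at 12.5 Gy and 10.13, 10.48 and 9.85 at 15 Gy, and fell by 1.86 ± 0.21 (limma, adjusted p = 0.0387) and 1.19 ± 0.21 (limma, adjusted p = 0.161). It also fell in CBA/J, by 2.38 ± 0.49 (limma, adjusted p = 0.2) and 1.83 ± 0.23 (limma, adjusted p = 0.0416), and in C57L/J by 1.61 ± 0.28 (limma, adjusted p = 0.101) at 12.5 Gy. The mean of 5 T cell genes was 7.74 to 8.18 in C57BL/6J sham lungs, 6.66 to 6.94 at 12.5 Gy and 6.95 to 7.17 at 15 Gy, and its part was not tested. In C57L/J at 15 Gy this mean was 6.85 to 9.22, against 7.93 to 8.62 in sham lungs. Cxcl10, a chemokine that draws T cells, was 10.4 on C57L/J replicate 3 at 15 Gy and at most 7.87 on every other array. Nlrc5, which drives MHC class I genes, and Gbp7 fell in CBA/J at 15 Gy, by 1.08 ± 0.15 (limma, adjusted p = 0.0532) and 1.01 ± 0.16 (limma, adjusted p = 0.0727). The immunity-related GTPases Igtp (-0.57) and Iigp1 (-0.69) were called lower there too. Irf1, a transcription factor downstream of interferon gamma, was called lower in CBA/J at 15 Gy (-0.43) and in C57BL/6J at 12.5 Gy (-0.77), and Samhd1, which depletes nucleotides, in C57BL/6J at both doses (-0.68 and -0.70). Of 5 markers of plasmacytoid dendritic cells, which make type I interferon, Ccr9 and Pacsin1 were called lower in C57BL/6J at 15 Gy, and the median change of the 5 was -0.31 at 12.5 Gy and -0.61 at 15 Gy. Their mean was 7.78 to 8.04 in sham lungs, 7.39 to 8.01 at 12.5 Gy and 6.92 to 7.86 at 15 Gy, and includes Cox6a2, which muscle also expresses. In C57L/J it was 7.76 to 8.04 in sham lungs and 7.22 to 8.69 at 15 Gy, highest on replicate 3. Calls were not limited to C57BL/6J. Pacsin1 was called lower in C57L/J at 12.5 Gy, and Pacsin1 and Siglech in CBA/J at 15 Gy. The median change of the 5 markers at 12.5 and 15 Gy was -0.35 and -0.25 in C57L/J and -0.30 and -0.33 in CBA/J.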

How the data were processed

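RNA from the lungs of 27 mice was measured on Affymetrix mouse genome arrays, 1 per mouse. The authors deposited linear intensity values per probe set, which the submitters' processing notes attribute to Affymetrix Expression Console 1.1. The study's methods describe 1 hybridization batch and quartile normalization. The 2% trimmed mean was 500 on every array, so the values were used as deposited. Of 45101 probe sets, 34958 carried a single gene symbol, and those with several (932) or none (9211) were left out. Each gene was read from its brightest probe set. Values under 1 were set to 1 before log2, and no filter was applied. The number of arrays limits the precision.

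Pairwise fits with limma 3.58.1 (R 4.3.3) used only the groups compared. The threshold was an unadjusted p under 0.01, with Benjamini-Hochberg adjustment over all genes, and errors of changes are standard errors. The members, lists and tests were chosen with earlier results of these data known. By rule, array values are given for called members, lowest p first and at most 14, and other pathway genes where called, at most 10 in order of p; the rest of those called (Irf1, Samhd1, Ifi203, Igtp, Iigp1, Ddx60, Slfn1 and Ifna9) were added after their values were seen. Promoters came from RefSeq tables of GRCm38.p6. The scripts were tested on simulated data. As alternatives, the random variance t test named in the methods of the study was run, with 1 fit over all arrays, an intensity trend and robust prior, an adjusted p under 0.05, quantile normalization, median-centring, a floor of 32, other probe set rules, a filter at a mean log2 of 6, the replicate number as a block, and fits without single arrays or without the arrays with muscle transcripts. Figures were drawn with matplotlib 3.10.9.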

Additional observations from a re-analysis of the deposited data

Results flagged for a closer look

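The responses of some members differed between strains by the interaction test at an unadjusted p under 0.01, and none of these differences passed an adjusted p of 0.05 by limma. Values are log2 differences in the change from sham, and a negative value is a lower response in the first-named strain. For CBA/J against C57BL/6J at 12.5 Gy the values were -0.75 for Oasl1, -0.87 for Ifit1, -1.03 for Ifit3, -0.77 for Herc6, -1.73 for Gbp3 and -0.82 for Trim30a. At 15 Gy they were -0.80 for Oas1a, -0.88 for Oasl1, -1.13 for Ifit1, -1.13 for Ifit3, -0.88 for Herc6, -1.71 for Gbp3, -0.83 for Cmpk2 and -1.06 for Rtp4. For CBA/J against C57L/J at 12.5 Gy they were -0.76 for Gbp2, -1.57 for Gbp3, -0.76 for Parp14 and -0.78 for Trim30a. For C57BL/6J against C57L/J at 12.5 Gy the value was -0.61 for Parp14. The comparisons share sham arrays, so their values are not independent.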

How the results depend on the processing

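Of 340 recomputed medians and correlations, 328 moved by less than an SD and 12 by more, and 25 medians had the other sign. For medians this was the SD of the array medians within groups (0.28), and for correlations the SD of r over the members. Some settings change only the error of a change, so their medians and directions could not differ. They were the random variance t test, the fit over all arrays, the intensity trend with a robust prior and the replicate block. Without the arrays with muscle transcripts the median was 0.17 for C57L/J at 15 Gy against sham, -0.15 for C57L/J at 15 against 12.5 Gy, 0.32 for the interaction at 15 Gy of C57BL/6J with C57L/J, -0.32 for that of CBA/J with C57L/J, and -0.087 for that at 12.5 Gy of CBA/J with C57BL/6J. With each array left out in turn the first ranged from 0.17 to 0.84, the second from -0.15 to 0.52 and the interaction of CBA/J with C57L/J at 15 Gy from -1.04 to -0.29, in each case between the fits without replicate 3 and without replicate 1 of C57L/J at 15 Gy. The median correlation was 0.59 without C57L/J 15 Gy replicate 3. Of 969 recomputed values of 52 called changes, 966 kept their direction and 651 their call. All 52 calls were kept with the random variance t test and with a floor of 32, but 19 in the fit over all arrays. Most were lost without the arrays with muscle transcripts, where some groups held 1 array. The exceptions in direction, with the most variable probe set, were Herc6 in C57BL/6J at 12.5 Gy (-0.55), Epsti1 in sham C57BL/6J against C57L/J (-0.39) and Herc6 in the interaction at 12.5 Gy of CBA/J with C57BL/6J (0.27). Counts of members that rose depended more on the setting. They ran from 0 to 8 in C57L/J at 12.5 Gy, 0 to 8 in C57L/J at 15 Gy, 1 to 13 in C57BL/6J at 12.5 Gy, 0 to 15 in C57BL/6J at 15 Gy and 0 to 2 in CBA/J at 12.5 Gy over the settings other than single arrays left out. The counts of 0 in C57L/J at 12.5 Gy and in C57BL/6J at 15 Gy were those at an adjusted p under 0.05. The upper ends came from an intensity trend with a robust prior, except in C57L/J at 15 Gy (a fit over all arrays) and in CBA/J (the values as reported). With 1 array left out they ran from 2 to 8 in C57BL/6J at 12.5 Gy and 5 to 9 at 15 Gy, with the fewest at both doses without sham replicate 1. Members called lower in the interaction of CBA/J with C57BL/6J ran from 0 (without the arrays with muscle transcripts) to 6 at 12.5 Gy and 0 to 11 at 15 Gy. With 1 array left out they ran from 2 (without C57BL/6J replicate 1 at 12.5 Gy) to 8 and from 6 to 11, and those of CBA/J with C57L/J at 12.5 Gy from 1 (without C57L/J sham replicate 1) to 6. The cause was not tested. The deviations of same-numbered mice from their group means had correlations of -0.07 to 0.25. Mice with different numbers were not compared, so these values cannot decide whether the numbers pair the samples. With the replicate number as a block the changes themselves cannot differ, because each number occurs once in each group. In those fits 9 of 24 called dose changes kept their call. The precision is limited by 3 arrays a group.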

Other observations

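Of the 36 members 16 had more than 1 probe set. Of their 25 dimmer probe sets 18 had a Pearson r of at least 0.5 with the brightest one over the 27 arrays, and 1 had r below 0 (Tor3a, -0.34).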
